A study of Homo sapiens with 8 samples.

Results

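The 35 genes described here encode the transporters and enzymes that take glucose to pyruvate and lactate, the enzymes that regulate that flow, and 4 genes of the response to low oxygen. They were chosen by name, with earlier results of these data known. The fall of ALDOC in the mutant line was known before the tests. For each gene the transcript row with the deposited gene symbol and the highest mean was used, out of 27424 genes in the table of all reads and 6993 genes in the table of converted reads. All 35 genes had a row in all reads. In converted reads 28 of them had a row, and ENO2, ENO3, SLC2A3, SLC16A3, PFKFB2, PFKFB4 and PDK1 had none.

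RNA came from NALM6, a human B-cell precursor leukemia line, and was measured by SLAM-seq. In this assay cells take up 4-thiouridine, which enters newly made RNA and is then chemically altered so that it is read as a T-to-C change. The conversion rate of a gene is the deposited conversion fraction, whose exact definition is not recorded in the labels or headers. It is read here as a measure that rises with the share of the RNA that was made during labelling. The induced mutant group had 2 libraries of a line carrying an inducible HMGN1 S20,24E, a form of this chromatin protein that is deficient in binding nucleosomes, after doxycycline at 100 ng/ml for 6 h. The induced wild type group had 3 libraries of a line carrying inducible wild-type HMGN1, given the same dose for the same time. The vehicle group had 3 libraries of that wild-type line without doxycycline. All 8 libraries were labelled with 4-thiouridine at 100 µM for the last 5 h, and none is labelled as grown in low oxygen. No vehicle library of the mutant line was analysed here, so that between induced mutant and vehicle the line, its transgene and doxycycline cannot be told apart, and between the induced groups the line and its transgene cannot. In the wild-type line doxycycline and HMGN1 cannot be told apart. The sources used here do not say whether each line is a single clone. The labels call the libraries biological replicates, lettered A to C.

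Glycolysis splits glucose into pyruvate and yields ATP without oxygen. Lactate dehydrogenase then returns pyruvate to lactate, which restores the cofactor that the pathway consumes. When oxygen is low, the transcription factor subunit HIF1A escapes degradation and raises the transcription of many glycolytic genes and of VEGFA, PDK1 and BNIP3. Rapidly dividing leukemia cells also run the pathway at a high rate with oxygen present.

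Library depth was between 7985544 and 17747784 reads. HMGN1, the induced gene, had 200 to 223 CPM (reads scaled to library depth) with induced mutant, 217 to 317 CPM with induced wild type and 145 to 191 CPM with vehicle, and neither induced group overlapped vehicle. Its log2 fold change of 0.67 (SE 0.17, adjusted p = 0.992) in the induced wild type and of 0.38 (SE 0.19, adjusted p = 1.00) in the induced mutant, each against vehicle, did not pass in limma. The conversion rate averaged over gene reads differed between libraries of the same group. It was 3.41% to 4.65% with induced mutant, 3.39% to 5.20% with induced wild type and 2.64% to 4.50% with vehicle, and vehicle A was the lowest library. Of 15 precursor B-cell markers, 14 were found, each with a mean of at least 1 CPM, whereas none of 6 T-cell and none of 4 erythroid markers reached that level. Of 4 stromal markers 1 reached it, and the 4 together had at most 5.94 CPM in any library. Of 6 myeloid markers 2 reached a mean of 1 CPM, LYZ at up to 2.22 CPM and CSF1R at 338 to 512 CPM, while FCGR3A and S100A8 were at 0.

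ALDOC was the gene of the list that passed the test in the induced mutant. It encodes aldolase C, the form best known from brain, which splits fructose bisphosphate into a pair of three-carbon sugars, and ALDOA encodes the widely expressed form of the same enzyme. Their promoter windows are shown because HIF1A raises the transcription of many glycolytic genes when oxygen is low. The window of PGK1, whose conversion rate was higher without overlap in both induced groups, is shown with them. Sequences are from RefSeq, build GRCh38.p14, 300 bases from 250 before to 50 after a gene start, 5′ to 3′ on the gene's strand. ALDOC lies at chr17:28576846-28577145 on the minus strand, ALDOA at chr16:30064029-30064328 on the plus strand and PGK1 at chrX:78103998-78104297 on the plus strand. For ALDOA, the window of its 3 that starts nearest to the counted transcript is shown. Capitals mark every match to ACGTG, the core letters of the HIF element, or to GCGTG, on either strand.
ALDOC promoter: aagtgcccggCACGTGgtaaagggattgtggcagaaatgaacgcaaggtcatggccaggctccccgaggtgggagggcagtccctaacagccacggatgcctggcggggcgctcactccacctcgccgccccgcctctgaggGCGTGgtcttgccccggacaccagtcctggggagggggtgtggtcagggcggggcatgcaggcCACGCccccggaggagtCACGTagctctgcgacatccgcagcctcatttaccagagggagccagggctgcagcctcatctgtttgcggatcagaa
ALDOA promoter: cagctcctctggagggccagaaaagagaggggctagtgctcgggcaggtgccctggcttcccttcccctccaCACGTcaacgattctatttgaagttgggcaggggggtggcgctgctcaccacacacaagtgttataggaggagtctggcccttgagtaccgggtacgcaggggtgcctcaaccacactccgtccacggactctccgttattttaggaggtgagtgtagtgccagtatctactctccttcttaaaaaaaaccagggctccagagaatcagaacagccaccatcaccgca
PGK1 promoter: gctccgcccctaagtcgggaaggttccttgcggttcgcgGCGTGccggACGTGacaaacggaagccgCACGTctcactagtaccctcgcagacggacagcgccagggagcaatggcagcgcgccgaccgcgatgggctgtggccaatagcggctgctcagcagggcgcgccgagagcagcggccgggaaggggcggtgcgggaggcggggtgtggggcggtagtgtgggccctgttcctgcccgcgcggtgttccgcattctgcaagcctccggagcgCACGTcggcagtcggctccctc
The ALDOC window held 5 matches, of which a pair overlap as the palindrome CACGTG. The PGK1 window held 4 and this ALDOA window 1. At least 1 match was present in 48.4% of 35116 promoter windows and in 65.6% of the 61 windows of 31 genes of the list, and 4 or more matches were present in 4.4% of all windows and in 9.84% of those 61. A match describes the letters only.

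ALDOC fell in the induced mutant. It had 21.3 and 26.7 CPM in the induced mutant libraries, against 92.9, 103.0 and 87.3 CPM with vehicle. The induced wild type libraries had 87.0, 92.8 and 71.5 CPM. Both mutant libraries lay far below all 6 others, and the induced wild type overlapped vehicle. In RNA from a whole culture, fewer cells with a transcript and less of it per cell cannot be told apart. These values rest on 221 and 310 reads in the mutant libraries, 741 to 1251 in the induced wild type and 826 to 1550 with vehicle. By limma with Benjamini-Hochberg adjustment over 12458 genes, the log2 fold change of CPM + 1 was -1.94 (SE 0.17, adjusted p = 0.00669) for induced mutant against vehicle and -1.76 (SE 0.17, adjusted p = 0.0159) for induced mutant against induced wild type. For induced wild type against vehicle it was -0.18 (SE 0.16, adjusted p = 0.992). The size of the mutant difference kept within -2.09 to -1.60 under every alternative run, but the call did not. Against vehicle its adjusted p ranged from 2.15e-06 to 0.206 over 20 alternatives, and it missed 0.05 with edgeR (0.0727 with TMM scaling), after median centring (0.121), without induced mutant A (0.206) and without vehicle B (0.0696). Against induced wild type it ranged from 0.000502 to 0.403, and it missed 0.05 under the same scalings and tools and without induced mutant A, induced mutant B, induced wild type A, induced wild type B or vehicle B. No other gene overlaps ALDOC in the RefSeq annotation and no pseudogene in GENCODE 29 is named after it.

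ALDOA was lower in the mutant libraries too, but by less, and it did not pass the test. It had 447 and 722 CPM with induced mutant and 1173, 898 and 752 CPM with vehicle, groups that did not overlap, though mutant B came close to vehicle C, and that overlapped after median centring. The induced wild type libraries had 804, 937 and 598 CPM and overlapped both other groups. The log2 fold change was -0.70 (SE 0.27, adjusted p = 1.00) for induced mutant against vehicle, -0.43 (SE 0.27, adjusted p = 1.00) for induced mutant against induced wild type and -0.27 (SE 0.25, adjusted p = 0.992) for induced wild type against vehicle. ALDOC reads as a share of ALDOA reads within a library, which no scaling between libraries can move, were 4.77% and 3.70% in the induced mutant and 7.92%, 11.5% and 11.6% with vehicle. They were 10.8%, 9.91% and 12.0% in the induced wild type. The mutant libraries lay below all others, with means of 4.24% ± 0.76 (SD, n = 2) in the induced mutant, 10.9% ± 1.03 (SD, n = 3) in the induced wild type and 10.3% ± 2.09 (SD, n = 3) with vehicle. The log2 ratio was taken after adding 1 CPM to each gene, so unlike the share it is not wholly free of library scaling. This ratio differed by -1.23 between induced mutant and vehicle and by -1.33 between induced mutant and induced wild type (exact two-sided permutation p = 0.1 each, the smallest these group sizes allow). Between induced wild type and vehicle it differed by 0.10 (exact p = 0.8), and without vehicle A by -0.09.

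**Figure D1:**
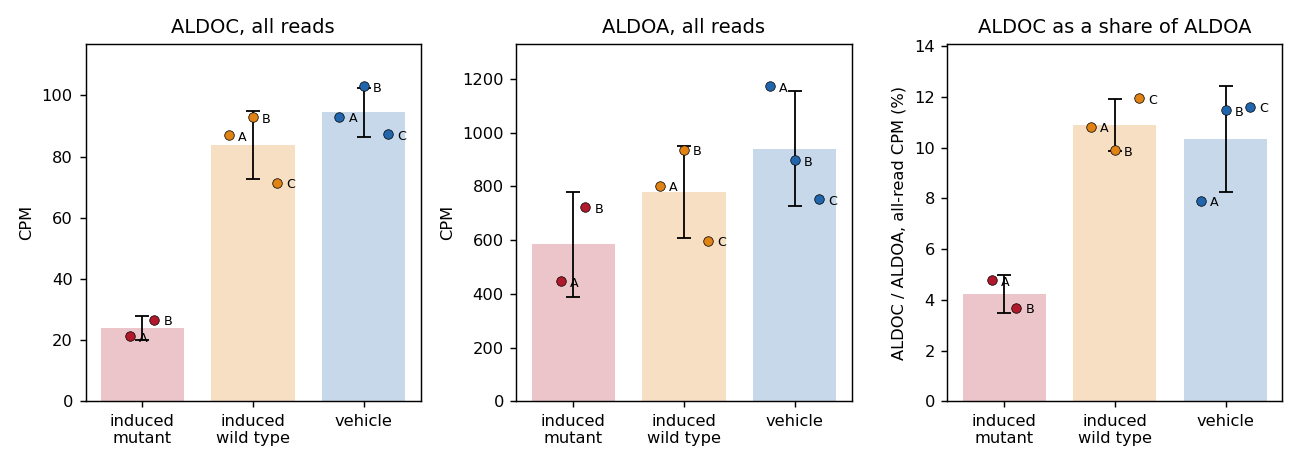
All-read CPM of ALDOC and of ALDOA and the ALDOC to ALDOA share in percent, for each library of the induced mutant, the induced wild type and vehicle. Bars are group means, error bars the SD and lettered points the libraries; the mutant ALDOC points, at 21.3 and 26.7 CPM, and the mutant shares, at 4.77% and 3.70%, lie below all other libraries.

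Among the 33 genes with a mean of at least 1 CPM, ALDOC was the only one that passed for induced mutant against vehicle, where 0.0321% of all genes passed, and for induced mutant against induced wild type, where 0.0321% did as well. The other 2 genes, SLC16A3 and PFKFB2, had means below 1 CPM and were not tested. Most of the remaining 32 lay on the same side without passing. Against vehicle 29 of 33 log2 fold changes were below 0 in the induced mutant, as were 57.5% of all genes, with a median of -0.31 against -0.04 over all genes. In 18 of 33 genes (54.5%) both mutant libraries were below every vehicle library, against 11.4% of all genes, and in none were both above, against 4.62% of all genes. Against the induced wild type, 30 of 33 were below 0, as were 73.4% of all genes, and 14 (42.4%) were lower without overlap, against 13.2%. These counts move with scaling and with single libraries. After each library was centred on its median, 12 genes were lower without overlap against vehicle, beside 11.7% of all genes, and 6 against the induced wild type, beside 9.62%. Without vehicle A, 29 of 33 were lower without overlap against vehicle, beside 37.3% of all genes. The listed genes are not independent of each other, and both comparisons use the same mutant libraries.

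Glucose enters through SLC2A1, the main carrier of blood cells, and SLC2A3, a carrier of high affinity. SLC2A1 had a mean of 18.9 ± 3.43 CPM in the induced mutant (SD, n = 2), 20.5 ± 6.03 CPM in the induced wild type and 18.2 ± 6.81 CPM with vehicle (SD, n = 3 each), and its groups overlapped in every comparison, with a log2 fold change of 0.11 (SE 0.35) for induced mutant against vehicle. SLC2A3 had 2.03 and 1.38 CPM in the induced mutant against 2.25, 3.13 and 3.44 CPM with vehicle. The first steps inside the cell showed no difference of that kind. The hexokinases HK1 and HK2, and ADPGK, which uses ADP in place of ATP, had log2 fold changes between -0.08 and 0.07 for induced mutant against vehicle, with overlapping groups.

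From the hexokinases down to the triose phosphates, 5 of 10 genes were lower in the mutant without overlap against vehicle, beside 11.4% of all genes. These were GPI, PFKL, ALDOC, ALDOA and TPI1. After median centring 2 were, ALDOC and PFKM, beside 11.7% of all genes. GPI, which turns glucose phosphate into fructose phosphate, had 240 and 297 CPM in the induced mutant against 361, 368 and 319 CPM with vehicle. TPI1, which interconverts the triose phosphates, had 269 and 407 CPM against 676, 518 and 456 CPM. Neither pair of groups overlapped, and neither gene passed. Of the phosphofructokinase subunits, PFKL (liver type) was lower without overlap, at a log2 fold change of -0.37 (SE 0.15), while PFKM and PFKP overlapped vehicle before centring. Of the enzymes that set the level of the activator of phosphofructokinase, PFKFB3 had a log2 fold change of 0.10 (SE 0.29) and PFKFB4 of -0.29 (SE 0.23).

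All 6 genes of the lower section of the pathway, from GAPDH to the enolases, were lower in both mutant libraries than in every vehicle library, with log2 fold changes between -0.70 and -0.31, where 11.4% of all genes were lower in this way. After median centring this held for 2 of the 6, ENO2 and ENO3, beside 11.7% of all genes, and none of the 6 passed. ENO1, the enolase of most tissues, had 881 and 1162 CPM in the induced mutant against 1727, 1573 and 1339 CPM with vehicle. ENO2, the neuronal enolase and the gene with the smallest p after ALDOC, had 1.06 and 0.60 CPM against 2.14, 2.26 and 1.52 CPM, with a log2 fold change of -0.70 (SE 0.23, adjusted p = 0.926). The ENO2 values rest on 7 to 30 reads a library. PGK1, which makes the first ATP of the pathway, had 395 and 386 CPM in the induced mutant, against 504, 530 and 464 CPM with vehicle and 536, 529 and 557 CPM in the induced wild type. Its groups did not overlap in either mutant comparison before centring, and its log2 fold change was -0.35 (SE 0.14) against vehicle and -0.47 (SE 0.14) against the induced wild type, with an adjusted p of 1.00 in limma for both. Many copies of GAPDH, BNIP3 and PGAM1 exist in the genome, with 62, 39 and 13 pseudogenes named after them in GENCODE 29. Reads of these genes cannot be told apart from those of such copies here. Of the 35 genes 13 have a pseudogene named after them, among them ALDOA with 2. In RefSeq 21 of the 35 genes overlap another gene, ALDOA among them, and whether reads were counted by strand is not given in the sources used here.

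At the end of the pathway, LDHA, the lactate dehydrogenase subunit induced by low oxygen, had 312 and 315 CPM in the induced mutant against 347, 385 and 418 CPM with vehicle. LDHB, the other main subunit, had 773 and 1044 CPM against 1211, 972 and 951 CPM and overlapped. PDK1, a kinase that holds pyruvate back from the mitochondrion, had 2.70 and 4.65 CPM in the induced mutant, against 6.75, 8.68 and 6.31 CPM with vehicle and 5.98, 6.76 and 7.17 CPM in the induced wild type. Its log2 fold change was -0.84 (SE 0.27, adjusted p = 0.926) against vehicle. The related kinase PDK3 overlapped in every comparison. The lactate carrier SLC16A1 had a log2 fold change of -0.32 (SE 0.22) with no overlap.

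Of the 4 side-branch genes, 1 was lower in the mutant without overlap against vehicle, beside 11.4% of all genes, and none was higher, beside 4.62%. This gene, PGM1, which links glycolysis to glycogen, had 19.9 and 23.5 CPM in the induced mutant, against 26.9, 25.4 and 25.1 CPM in the induced wild type and 27.9, 30.0 and 29.3 CPM with vehicle. Before centring it was the only gene of the list that was lower without overlap in the induced wild type than with vehicle. That was 1 of 33 genes (3.03%, against 1.53% of all genes), with none higher (against 2.51%). Its log2 fold change there was -0.17 (SE 0.15, adjusted p = 0.992 by limma). After median centring PGM1 overlapped vehicle in both induced groups. SLC16A1 and BNIP3 were then lower without overlap in the induced wild type (6.06%, against 2.7% of all genes). Of the side-branch genes PGM2 was then lower without overlap in the mutant, beside 11.7% of all genes. BPGM, which makes bisphosphoglycerate, had the highest log2 fold change of the list for induced mutant against vehicle, 0.18 (SE 0.41), with overlapping groups. Against the induced wild type 3 genes were above 0, BPGM (0.06), MPI (0.02) and LDHB (0.0035), and all overlapped. PGM2 and MPI overlapped vehicle as well before centring.

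Of the hypoxia response genes, VEGFA was the one lower without overlap in both mutant comparisons. This growth factor of blood vessels had 5.59 and 4.48 CPM in the induced mutant, against 13.3, 8.52 and 15.3 CPM in the induced wild type and 7.54, 11.3 and 11.3 CPM with vehicle. The VEGFA values rest on 58 and 52 reads in the mutant libraries, 68 to 211 in the induced wild type and 67 to 201 with vehicle. Both mutant libraries were below all 6 others. The log2 fold change was -0.86 (SE 0.30) against vehicle and -1.12 (SE 0.30) against the induced wild type, with an adjusted p of 1.00 in limma for both. In DESeq2 on the recovered reads VEGFA passed in both mutant comparisons, with an adjusted p of 0.0177 against the induced wild type, within a range of 0.0177 to 1.00 over 20 alternatives. P4HA1, a subunit of the collagen prolyl hydroxylase, had 9.45 and 6.64 CPM in the induced mutant against 9.79, 10.8 and 12.5 CPM with vehicle. HIF1A itself had a log2 fold change of -0.17 (SE 0.54), with overlapping groups. BNIP3, which marks mitochondria for removal, had -0.21 (SE 0.23), with groups that overlapped before centring. Before centring 2 of the 4 genes, VEGFA and P4HA1, were lower without overlap against vehicle, beside 11.4% of all genes. After median centring 3 of the 4 were, VEGFA, BNIP3 and P4HA1, beside 11.7%.

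In the induced wild type against vehicle no gene of the list passed, nor did any of the 12458 genes tested (0%) by limma, of which 118 had an unadjusted p below 0.05, none of them in the list. With edgeR and with DESeq2, 2 genes passed each, none of them in the list. The 33 log2 fold changes lay between -0.27 for ALDOA and 0.29 for PFKFB4, with a median of -0.03 against 0.09 over all genes. Of these 33, 18 were below 0, against 32.4% of all genes. The smallest p-values below 0 belonged to ALDOC, LDHB (-0.21, SE 0.18) and PGM1, and above 0 to PFKFB4, VEGFA (0.26, SE 0.27) and PGK1 (0.11, SE 0.13).

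**Figure D2:**
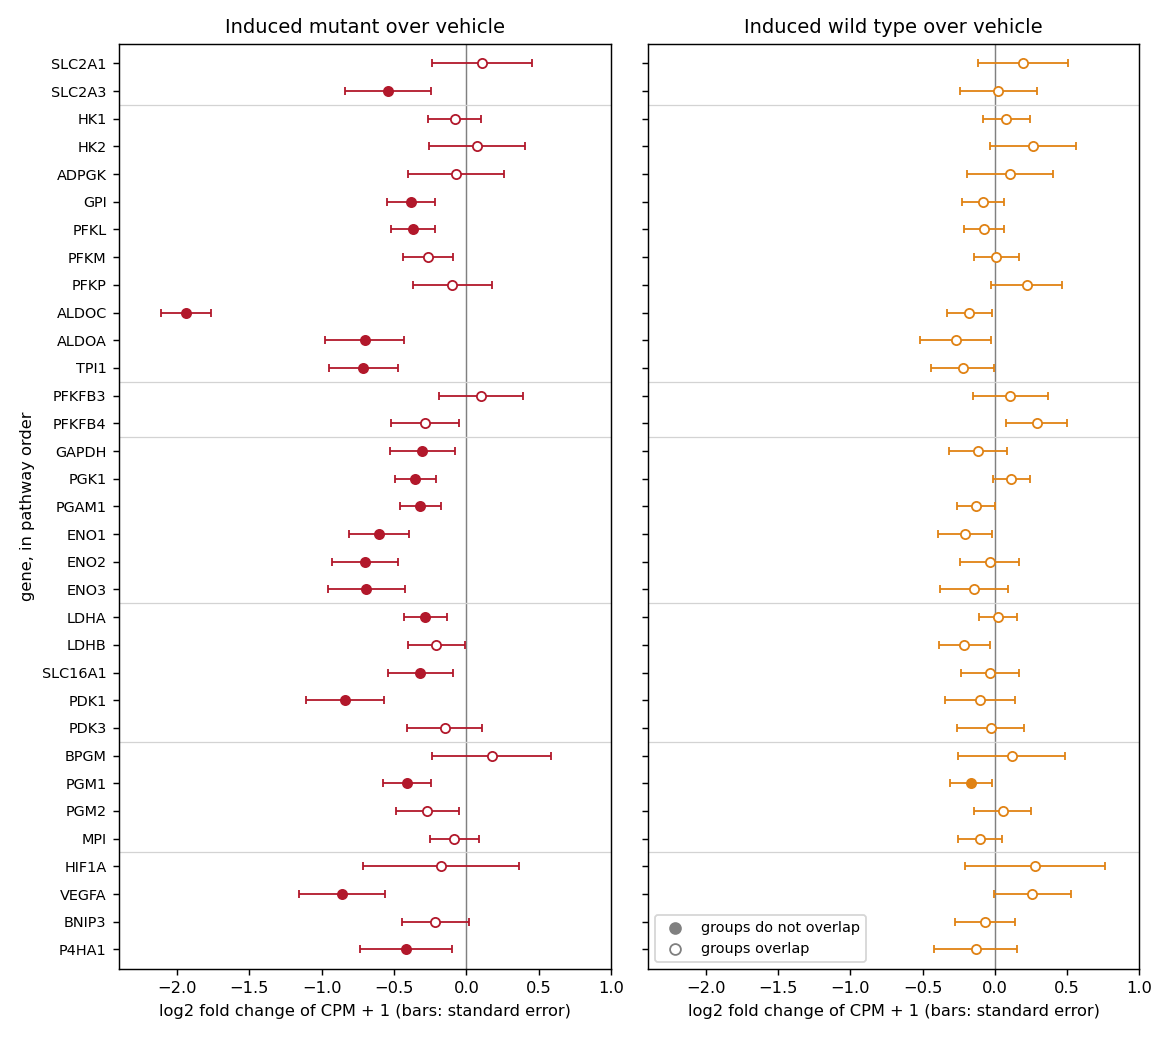
Log2 fold change of all-read CPM + 1 with its standard error for the 33 tested genes in pathway order, for induced mutant over vehicle on the left and induced wild type over vehicle on the right. Filled points mark genes whose groups do not overlap, 18 on the left and 1 on the right, and ALDOC, at -1.94, lies apart from the others.

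Other genes of these pathways were read from lists of their own. None of their genes passed in any comparison. For induced mutant against vehicle, 7 of 10 tested further glycolysis genes were below 0, as were 6 of 10 regulators of HIF, 16 of 23 further HIF targets, 7 of 8 pentose phosphate genes and 9 of 13 genes of pyruvate entry into the mitochondrion. Over all genes 57.5% were below 0 and 0.0321% passed. Every list had a larger share below 0 than that, by the least for the regulators of HIF. In the same order the lists had median log2 fold changes of -0.10, -0.12, -0.21, -0.16 and -0.03, against -0.04 over all genes. Whether the lists differ from all genes was not tested. PKM2, the symbol the file gives to pyruvate kinase, had 758 and 934 CPM in the induced mutant against 1311, 1426 and 1184 CPM with vehicle, with a log2 fold change of -0.63 (SE 0.18, adjusted p = 0.750). BNIP3L, a paralog of BNIP3 and a HIF target, had 5.69 and 6.64 CPM against 14.1, 14.2 and 13.0 CPM, with a log2 fold change of -1.05 (SE 0.21, adjusted p = 0.357). HIF3A, which restrains the other HIF subunits, had 0.68 and 0.69 CPM against 1.91, 2.34 and 1.30 CPM, with a log2 fold change of -0.74 (SE 0.22, adjusted p = 0.778). Since 1 read is 0.096 CPM in mutant A and 0.086 CPM in mutant B, these HIF3A values rest on few reads. The gene next in order of p was higher in the list of HIF regulators, CREBBP, a coactivator of HIF, with 31.9 and 18.0 CPM in the induced mutant against 10.0, 19.4 and 17.7 CPM with vehicle and a log2 fold change of 0.63 (SE 0.44), with overlapping groups. In the other lists it was -0.27 (SE 0.14) for BSG, the chaperone of the lactate carriers, and -0.52 (SE 0.23) for GBE1, which branches glycogen. The pentose phosphate genes PGLS and PGD had -0.31 (SE 0.24) and -0.16 (SE 0.14). Of the pyruvate entry genes, PDHX, a subunit of pyruvate dehydrogenase, had 0.53 (SE 0.32), and the mitochondrial pyruvate carrier subunit MPC2, listed as BRP44, had -0.27 (SE 0.19).

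The conversion rate differed widely along the pathway. Of the 29 genes with a mean of at least 5 CPM, 17 (58.6%) were below the library median in all 8 libraries, against 36.7% of 8724 genes, and 3 (10.3%) were above it in all 8, against 33.3%. The 3 were the carrier SLC2A1, the regulator PFKFB3 and the phosphofructokinase subunit PFKP. With vehicle, SLC2A1 had 11.0%, 9.86% and 11.1%, above 97.3% of genes on average. The lowest genes were TPI1 and PGK1, with means of 0.741% and 0.766%, followed by ALDOC at 0.842% and LDHA at 0.854%. All 4 genes of the lower section that reached 5 CPM, GAPDH, PGK1, PGAM1 and ENO1, were below the median in all 8 libraries. None of the 4 hypoxia response genes was below it in all 8, and none was above it in all 8. BNIP3 was below it in 7 libraries, VEGFA and P4HA1 in 6 each and HIF1A in 3.

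**Figure D3:**
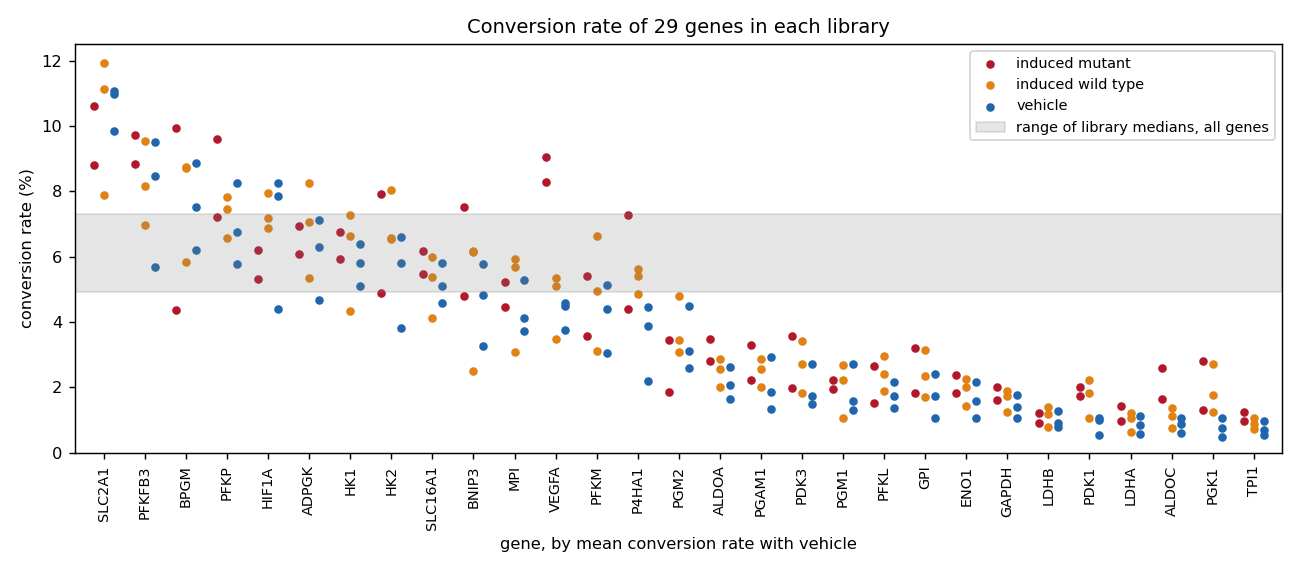
Conversion rate in percent for each of 29 genes in every library, coloured by group with the induced mutant on the left of each gene and vehicle on the right. Genes run from the highest to the lowest mean with vehicle, and the grey band spans the library medians over all genes; SLC2A1 stands above the band and most enzymes of the pathway below it.

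Several genes with lower levels in the mutant libraries had higher conversion rates there. ALDOC had 2.60% and 1.64% in the induced mutant, against 1.11%, 0.745% and 1.36% in the induced wild type and 0.607%, 0.866% and 1.05% with vehicle. VEGFA had 8.29% and 9.05%, against 5.09%, 3.48% and 5.35% in the induced wild type and 4.60%, 3.76% and 4.48% with vehicle. For both genes the mutant libraries were above all 6 others. Relative to the library median, ALDOC was at 0.38 and 0.30 of it in the induced mutant and at 0.12, 0.15 and 0.16 of it with vehicle. VEGFA was at 1.22 and 1.67 times the library median in the induced mutant, against 0.93, 0.64 and 0.67 times with vehicle. On this scale, too, neither gene's mutant libraries overlapped the others. ALDOA had 3.48% and 2.80% in the induced mutant, against 2.57%, 2.03% and 2.86% in the induced wild type and 1.66%, 2.06% and 2.62% with vehicle. Relative to the library median ALDOA was at 0.512 and 0.515 in the induced mutant, against 0.386, 0.375 and 0.391 in the induced wild type and 0.337, 0.354 and 0.390 with vehicle, so its mutant libraries, too, were above all 6 others on that scale. Against vehicle 6 of 29 genes (ALDOA, ALDOC, PDK1, PGK1, TPI1 and VEGFA, 20.7%) were higher without overlap, beside 5.3% of all genes, and none was lower, beside 3.92%. Against the induced wild type these were ALDOC and VEGFA (6.9%, beside 1.8%), and HIF1A was lower (3.45%, beside 8.17%). No gene passed with limma on the log2 scale, with each library centred on its median, where 0% of all genes passed in either comparison, and 729 and 458 genes had an unadjusted p below 0.05. For induced mutant against vehicle the log2 fold change of ALDOC was 0.89 (SE 0.14, adjusted p = 0.283), and it passed when only genes of at least 20 CPM were tested (adjusted p = 0.0340, within a range of 0.0340 to 0.918 over 17 alternatives). For VEGFA it was 0.88 (SE 0.17, adjusted p = 0.308).

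PGK1 was the gene of the list whose conversion rate was higher than with vehicle, without overlap, in both induced groups. It was 2.82% and 1.31% in the induced mutant and 1.77%, 1.24% and 2.72% in the induced wild type, against 0.483%, 0.762% and 1.05% with vehicle. All 5 induced libraries lay above all 3 vehicle libraries, whereas the 2 induced groups overlapped. Relative to the library median PGK1 was at 0.41 and 0.24 in the induced mutant and at 0.27, 0.23 and 0.37 in the induced wild type, against 0.098, 0.13 and 0.16 with vehicle, the library with the lowest overall conversion, vehicle A, being the lowest here as well. Mean rates of other genes were also higher in both induced groups, such as PDK1 at 1.87% in the induced mutant and 1.70% in the induced wild type, against 0.867% with vehicle, and no test compared PGK1 with them. The median-centred log2 fold change of the rate was 0.91 (SE 0.21, adjusted p = 0.353) in the induced mutant and 0.77 (SE 0.19, adjusted p = 0.952) in the induced wild type by limma, both against the same vehicle libraries. P4HA1 was the only other gene that was higher without overlap in the induced wild type than with vehicle (2 of 29 genes, 6.9%, against 4.65% of all genes, with 0% passing and 411 genes at an unadjusted p below 0.05), and none was lower (against 0.459%).

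New RNA stands here for CPM times the conversion rate, so it rests on both measures above. Because the conversion value is not a share of reads, the product is an index in CPM units and not the CPM of newly made RNA. For PGK1 this index was 11.2 and 5.06 CPM in the induced mutant and 9.50, 6.57 and 15.1 CPM in the induced wild type, against 2.43, 4.04 and 4.90 CPM with vehicle. Both induced groups were above vehicle without overlap, by a narrow gap for mutant B. The log2 fold change was 0.97 (SE 0.22, adjusted p = 0.174) in the induced mutant, where 0.0414% of all genes passed, and 1.15 (SE 0.20, adjusted p = 0.212) in the induced wild type, where 0.0207% did. Without a filter on low values PGK1 passed in both, with an adjusted p of 0.0335 and 0.00178 by limma. Under that setting 80 of 20683 genes passed in the induced mutant and 10 in the induced wild type. Over 17 alternatives each the adjusted p ranged from 0.0335 to 1.00 and from 0.00178 to 0.988. For ALDOC the index was 0.553 and 0.438 CPM in the induced mutant, against 0.969, 0.691 and 0.971 CPM in the induced wild type and 0.564, 0.892 and 0.919 CPM with vehicle. The mutant libraries were the lowest, yet mutant A lay next to vehicle A, and the log2 fold change of -0.62 (SE 0.21, adjusted p = 0.445) against vehicle was smaller in size than that of all reads. For ALDOA the index was 15.6 and 20.2 CPM in the induced mutant, 20.7, 19.0 and 17.1 CPM in the induced wild type and 19.5, 18.5 and 19.7 CPM with vehicle, and all groups overlapped. No gene of the 30 tested passed in any comparison, including induced mutant against induced wild type, where 0% of all genes did and 287 had an unadjusted p below 0.05. Against vehicle 1 gene was higher without overlap in the induced mutant (PGK1, 3.33%, against 3.2% of all genes) and 2 were lower (ALDOC and ENO3, 6.67%, against 5.55%). In the induced wild type PGK1 was the only one (3.33%, against 2.05% higher and 0.321% lower among all genes). Against the induced wild type the mutant had 3 lower genes (ALDOC, ENO3 and PFKL, 10%, against 9.25%) and no higher one (against 0.611%).

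**Figure D4:**
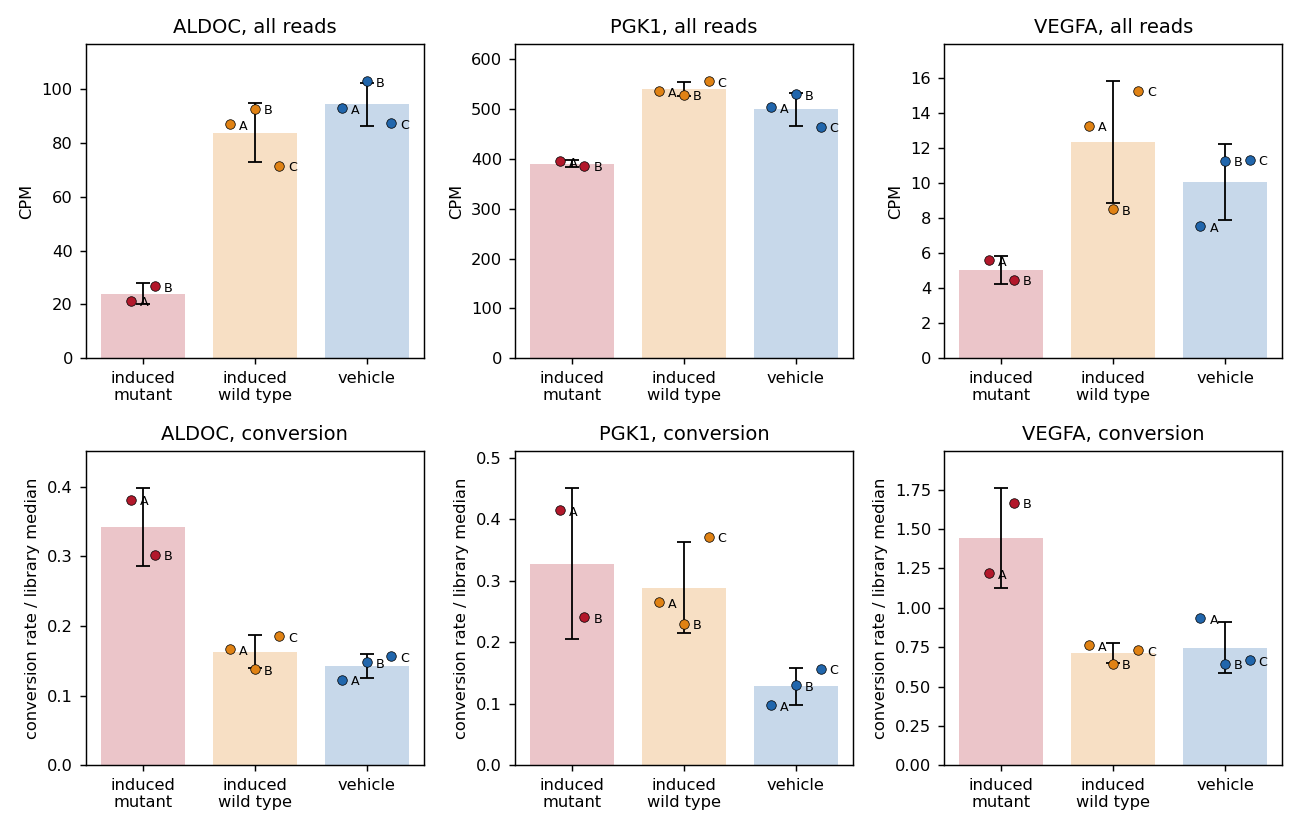
All-read CPM in the upper row and the conversion rate divided by the library median in the lower row for ALDOC, PGK1 and VEGFA, by library in the induced mutant, the induced wild type and vehicle. Bars are means and error bars the SD; ALDOC and VEGFA are lowest in level and highest in relative conversion in the mutant libraries, and PGK1 conversion is higher in both induced groups than with vehicle.

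The converted-read table gave sparser values. ALDOC had 0.29 and 0.33 FPKM (fragments scaled to transcript length and depth) in the induced mutant, against 1.33, 0.48 and 1.02 FPKM in the induced wild type and 0.94 and 0.35 FPKM with vehicle B and C, while vehicle A listed it at 0, and its mean was too low to be tested. ALDOA had 13.9 and 22.2 FPKM in the induced mutant, against 23.4, 28.9 and 18.1 FPKM in the induced wild type and 35.4, 34.9 and 27.0 FPKM with vehicle. Its mutant libraries were below every vehicle library, with a log2 fold change of -0.83 (SE 0.29, adjusted p = 0.249). PFKFB3, with 5.34 and 4.56 FPKM against 1.05, 0.95 and 2.10 FPKM with vehicle, differed in the other direction, by 1.36 (SE 0.48, adjusted p = 0.263). Of 25 genes tested none passed for induced mutant against vehicle, where 0.401% of all genes did. None passed in the other comparisons either, where 0% did, with 455 genes at an unadjusted p below 0.05 in the wild-type line and 169 between the induced groups. Without overlap against vehicle, 4 genes were higher in the mutant (GPI, HK1, HK2 and PFKFB3, 16%, against 20.4% of all genes) and 1 was lower (ALDOA, 4%, against 7.81%). In the induced wild type HK2 and VEGFA were higher than vehicle (8%, against 10.7% of all genes) and none was lower (against 1.26%). Between the induced groups LDHA and SLC16A1 were higher in the mutant (8%, against 5.18%) and ENO1, GAPDH and VEGFA were lower (12%, against 11.8%). These shares were near those of all genes.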

How the data were processed

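SLAM-seq was run on 8 NALM6 libraries (2 induced mutant, 3 induced wild type and 3 vehicle). Per the labels' protocols, 4 µg of RNA and a stranded mRNA kit were used, and the submitters' processing notes name the builds hg19 and GRCh37. No aligner or caller is named there. The authors deposited a per-transcript depth-scaled signal for all reads, with CPM in its column names, and a conversion value as a fraction, and, per the file headers, FPKM of converted reads. The definition of that fraction is not recorded in the labels or headers. In rows with exactly 1 read 12527 values lay between 0 and 1, so it is not a share of reads.

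For each gene the row with the highest mean was used (61177 rows, 27424 genes in all reads; 10032 rows, 6993 genes in converted reads). Deposited symbols were used. Of 25396 rows without one, RefSeq names 24846, and 54 of those named after listed genes were left out. Library depth, 7985544 to 17747784 reads, sets the precision of low values. CPM steps gave whole reads for 100.0% of values within 0.1 read, and these recovered counts entered edgeR and DESeq2 as alternatives.

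Tests used limma 3.58.1 in R 4.3.3, with a mean-variance trend, on log2(value + 1) of genes with a mean of at least 1, with all 8 libraries in 1 fit, which shares the spread, and Benjamini-Hochberg adjustment over all genes tested at 0.05. Fold changes are on that scale and understate changes of low genes. The new RNA index (CPM times the conversion fraction) used log2(value + 0.1) and a mean of at least 0.2. The conversion rate used log2(percent + 0.5) and a mean of at least 5 CPM and was added after the data were seen. Both were centred on the library median. Groups do not overlap where all values of one exceed all of the other, before centring. Single values had exact two-sided permutation tests, whose smallest p is 0.1 for groups of 2 and 3 and of 3 and 3. Each test script was tested on simulated data.

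The genes named in full were ALDOC and ALDOA, any listed gene that passed, the 3 listed genes with the smallest p in each direction of each comparison in all reads, and the 2 with the smallest p of each further list. PGK1 and VEGFA conversion, and other genes whose groups do not overlap, were chosen after their values were seen. The genes and lists were chosen with earlier results of these data known. Alternatives were edgeR 4.0.16 with TMM or DESeq2 size factors, DESeq2 1.42.0, median centring, pseudocounts, filters, a replicate block and leaving out each library.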

Additional observations from a re-analysis of the deposited data

How the results depend on the processing

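The lower ALDOC level of the induced mutant kept its direction under every alternative run, and its call depended on the tool, the scaling and single libraries. Against vehicle the log2 fold change was -1.94 with median centring, -1.94 with edgeR and TMM and -1.95 with edgeR and DESeq2 size factors, all short of the threshold, and -2.09 to -1.78 when libraries were left out. Against the induced wild type it was -1.63, -1.66 and -1.66 under the same settings, again short of it, and -1.92 to -1.60 when libraries were left out. Genes of the list that passed accordingly numbered 0 under these 3 settings in both mutant comparisons, 2 with DESeq2 (ALDOC and VEGFA) and 0 to 1 when libraries were left out. Over all genes, 4 passed by limma in each mutant comparison, whereas by DESeq2 72 passed against vehicle and 14 against the induced wild type. For new RNA 1 listed gene, PGK1, passed against vehicle in each induced group with no filter on low values. Over all 20683 genes tested that way, 80 passed in the induced mutant and 10 in the induced wild type. For the conversion rate 1 listed gene, ALDOC, passed in the induced mutant against vehicle with a filter at 20 CPM.

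Genes lower without overlap numbered 18 to 29 for induced mutant against vehicle when libraries were left out, beside 13.8% to 37.3% of all genes. For induced wild type against vehicle they numbered 2 with median centring, beside 2.7% of all genes. When libraries were left out they numbered 1 to 5, beside 3.16% to 5.68%. For the 2 induced groups they numbered 6 with median centring, beside 9.62%. The log2 ratio of ALDOC to ALDOA between induced wild type and vehicle turned to -0.086 without vehicle A, within -0.086 to 0.19 when libraries were left out. The cause of these shifts was not tested. Median centring moved the median of all genes from 0.09 to -0.04 for induced wild type against vehicle and from -0.12 to 0.02 between the induced groups. The labels do not say that a replicate letter marks a shared culture or day, so the letters were not used as pairs. Deviations from group means of libraries with the same letter correlated at -0.74 to 0.74 over 7 pairs, against -0.80 to 0.80 for 14 other pairs. These ranges cannot decide on a pairing, because deviations of the 2 mutant libraries from their own mean are opposite by construction. With the replicate block, ALDOC had a log2 fold change of -2.02 (limma, adjusted p = 0.00288) against vehicle and -1.84 (adjusted p = 0.00751) against the induced wild type, and the block changed no count of listed genes. Depth limits the low genes, such as ENO2 and PDK1, whose values rest on 7 to 112 reads.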
